A study of Mus musculus with 10 samples.

Results

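The 10 genes described here make, remove or respond to reactive oxygen species in the vessel wall, and were chosen by symbol: the NADPH oxidase subunits Nox1, Nox4 and Cyba, the superoxide dismutases Sod1, Sod2 and Sod3, catalase (Cat), the stress-inducible enzymes Hmox1 and Nqo1, and the thioredoxin inhibitor Txnip. All 10 are among the 55426 genes of the deposited expression table, and 9 of them passed the filter on low values that left 15668 genes for testing. RNA-Seq covered the thoracic aortas of 3 control mice (Prdm16f/f, floxed Prdm16 without Cre) and 3 Prdm16SMKO mice (Prdm16f/f with SMMHC-CreERT2), so by the labels both groups carry the floxed alleles and the Cre transgene is present in Prdm16SMKO only. The methods of the study name mice with Cre as controls too, without saying which were used for RNA-Seq. SMMHC is the smooth muscle myosin heavy chain gene, Myh11, whose promoter restricts the tamoxifen-inducible Cre recombinase to smooth muscle. The transgene lies on the Y chromosome, and Prdm16SMKO mice of this kind are males. Whether the control mice received tamoxifen, and the age and hour at which these aortas were taken, are not given in the sources used here. ChIP-Seq came from wild type primary mouse vascular fibroblasts, connective tissue cells and not smooth muscle cells, that received a lentivirus with either Flag-tagged PRDM16 or an empty vector for 48 hours. Puromycin selection (2 μg/mL) lasted 1 week, and 1 anti-Flag library was made for each condition. The expression values were TPM (transcript abundances scaled for gene length and library total), which can be compared between genes.

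NADPH oxidases pass electrons from NADPH to oxygen. NOX1 makes superoxide, whereas NOX4, the isoform typical of vascular smooth muscle, releases mainly hydrogen peroxide, and both need p22phox, the protein of Cyba. Superoxide dismutases turn superoxide into hydrogen peroxide in different places, SOD1 in the cytosol with copper and zinc, SOD2 in mitochondria with manganese, and SOD3 in the extracellular matrix, to which smooth muscle secretes it. Catalase, in peroxisomes, splits hydrogen peroxide into water and oxygen. HMOX1 (heme oxygenase-1) breaks down heme and NQO1 reduces quinones, and the genes of both are classical targets of the transcription factor NRF2. TXNIP binds thioredoxin and limits its reducing activity, and its transcription rises with glucose.

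In the aorta, Nox4 and Nqo1 were each lower in all 3 Prdm16SMKO aortas than in any control aorta, at 81.4% and 78.7% of the control mean, and Sod1 showed the same separation at 88.4%, which it lost after rescaling. None of these differences passed the test over all genes. The levels of Cyba, Sod2, Sod3, Cat, Hmox1 and Txnip overlapped between the groups, and Nox1 was listed at 0 in every aorta. In the fibroblasts, PRDM16 peaks lay at the start sites of Cyba, Sod1 and Cat and of no other member. The peak nearest to the start site of Nox4 was over 1 Mb from that site.

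The DNA at these start sites is shown first, since the peaks carry the binding data. Positions are in the mouse build GRCm38, sequences are from RefSeq and its genome, and each is written 5′ to 3′ on the strand of its gene. At Cyba (minus strand) the peak was chr8:122432563-122432864, at Sod1 (plus strand) chr16:90219993-90221268, and at Cat (minus strand) chr2:103484713-103485034. The 41 bases centred on each summit, the base where the deposited peak was highest, follow with that base as the capital letter.
Cyba, chr8:122432721-122432761: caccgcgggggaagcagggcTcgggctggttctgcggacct
Sod1, chr16:90220904-90220944: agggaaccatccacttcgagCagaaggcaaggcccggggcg
Cat, chr2:103484803-103484843: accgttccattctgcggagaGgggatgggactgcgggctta

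RefSeq promoters (from 250 bases before to 50 bases after the start site) were at hand for 8 of the 10 members, all but Sod3 and Hmox1. They were searched on both strands for TGACNNNGC, the core of the antioxidant response element that NRF2 binds, for CACGTG, the E-box bound by clock proteins among others, and for AGATAA, a core of the sites of GATA factors. TGACNNNGC was found only in the Sod1 promoter among the 8, and in 12.4% of all 32851 promoters. AGATAA was found only in that of Cyba, against 11.2% of all promoters, and CACGTG in none, against 7.15%. The Txnip promoter held 1 pair of E-box-like elements (CACGNG) separated by 5 bases, the spacing of carbohydrate response elements, which 16 promoters (0.0487%) held. That pattern was added after the data were seen, and none of the 4 patterns overlapped another at these genes. The stretches with the matches follow with the match in capitals, which at Sod1 and Cyba reads as the reverse complement of the pattern. The first 120 bases upstream of Nox4, the member with the lowest P value, are shown as well, in which none of the 4 patterns occurred.
Sod1, chr16:90220642-90220761, the last 120 bases before the start site: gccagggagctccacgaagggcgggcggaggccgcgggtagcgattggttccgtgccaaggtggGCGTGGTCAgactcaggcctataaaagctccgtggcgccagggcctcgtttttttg
Cyba, chr8:122433091-122433190, bases −250 to −151 from the start site: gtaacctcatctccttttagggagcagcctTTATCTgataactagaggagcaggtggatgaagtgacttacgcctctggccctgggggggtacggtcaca
Txnip (plus strand), chr3:96557817-96557956, the last 140 bases before the start site: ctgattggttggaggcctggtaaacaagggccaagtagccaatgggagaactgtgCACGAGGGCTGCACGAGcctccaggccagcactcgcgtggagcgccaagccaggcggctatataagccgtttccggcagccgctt
Nox4 (plus strand), chr7:87246529-87246648, the last 120 bases before the start site: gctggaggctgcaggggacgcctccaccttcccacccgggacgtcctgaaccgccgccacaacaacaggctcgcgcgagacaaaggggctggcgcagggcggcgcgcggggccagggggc

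Before the members, the targeted gene was checked. Prdm16 was at 56.1, 47.6 and 40.3 TPM in the control aortas and at 23.3, 33.3 and 23.4 TPM in the Prdm16SMKO aortas, 55.6% of the control mean, which follows the labels without overlap. Its adjusted P was 0.0725 with the deposited TPM and 0.0232 after median-ratio rescaling (limma). The sum of 8 smooth muscle markers, to which Acta2 gave the most, was at 14211 to 18356 TPM in the Prdm16SMKO aortas and 21185 to 24717 TPM in the control aortas. All 8 were present and none passed the test. Acta2, Tagln, Cnn1 and Lmod1 were lower without overlap, Des was higher without overlap (67.9 to 73.1 against 46.1 to 63.1 TPM), and Myh11, Smtn and Mylk overlapped. The summed markers of fibroblasts, endothelium, macrophages, erythroid cells, adipocytes, brown adipocytes and skeletal muscle overlapped between the groups. The summed level of 5 brown adipocyte markers ran from 93.8 to 533 TPM and was highest in control 2 and Prdm16SMKO 3, although Dio2 was lower in every Prdm16SMKO aorta (9.88 to 13.3 TPM) than in any control (16.1 to 22.8 TPM). An 18S rRNA–related entry took 20.2% to 28.2% of the TPM and mitochondrially encoded genes 14.7% to 26.5%, so the members' TPM depend on shares that varied among the aortas. Depth per aorta is unknown from TPM. Each aorta is a separate sample by its label, and where nothing more is known of their origin the P values measure the spread between these samples only. In whole aorta, fewer cells of a type and less RNA per cell cannot be told apart.

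Among the 9 tested members, none passed an adjusted P of 0.05 (limma with Benjamini-Hochberg adjustment over all tested genes), against 1.07% of all tested genes. At an unadjusted P under 0.05 there were 2, Nox4 and Nqo1, both lower in Prdm16SMKO, against 12.7% of all tested genes in either direction and 9.45% in that direction. The groups did not overlap for 3 members, all lower in Prdm16SMKO, against 14.9% of all genes lower and 4.08% higher. The log2 fold change (Prdm16SMKO minus control, on the log2[TPM + 0.1] scale) was negative for 8 of the 9 members, and for 67.9% of all tested genes. The median of the members was −0.16 and that of all genes −0.12. After median-ratio rescaling, which brought the median of all genes to 0.00024, the members' median was −0.05, with 5 of 9 negative, and again none passed the test, against 2.62% of all genes, while 2 were under an unadjusted P of 0.05, against 15.2% of all genes. Nox4 and Nqo1 were then the 2 members without overlap, both lower, against 11.0% of all genes lower and 10.7% higher.

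**Figure D1:**
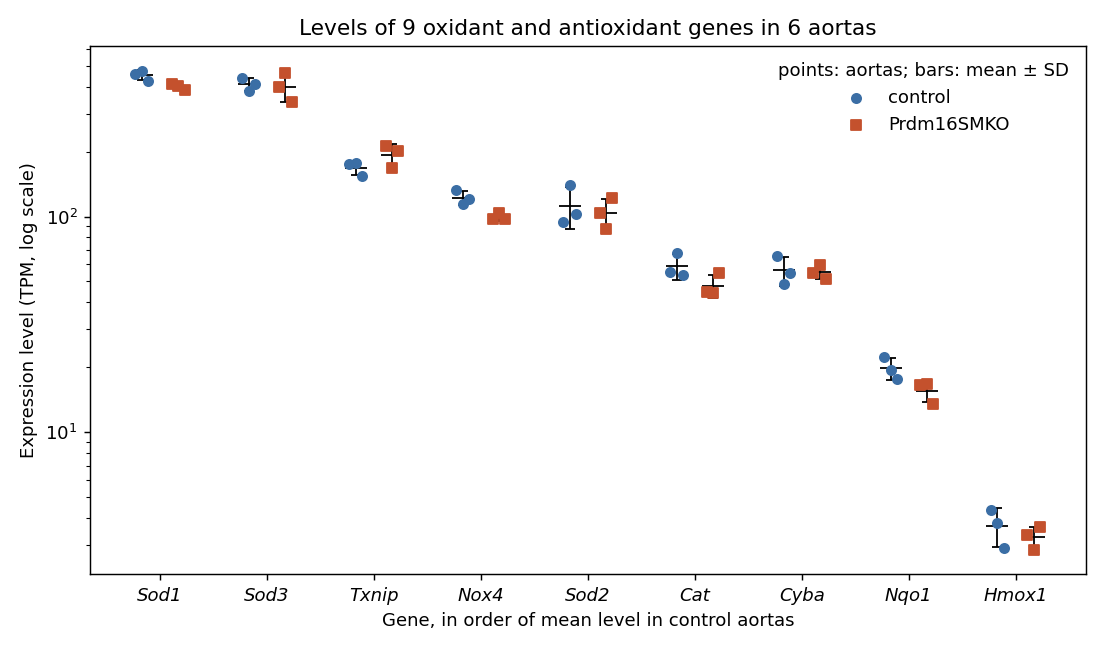
Expression level in TPM (log axis) of the 9 members above 0 in the 6 aortas, in the order of their control means, with a point per aorta and bars for the mean ± SD (n = 3 per group). The control means run from 453 TPM for Sod1 to 3.69 TPM for Hmox1, and the groups are separate for Sod1, Nox4 and Nqo1 and overlap for the other 6.

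The members spanned a wide range of levels. In the control aortas the order of the mean TPM was Sod1, Sod3, Txnip, Nox4, Sod2, Cat, Cyba, Nqo1, Hmox1 and Nox1. Sod1 and Sod3 overlapped over the 3 control aortas, as did Nox4 and Sod2, and Cat and Cyba. The other neighbours did not. Sod1, at 453 ± 25.2 TPM, and Sod3, at 410.3 ± 29.9 TPM (SD, n = 3), were above 98.9% and 98.8% of all tested genes, Txnip above 96.6% and Nox4 above 95.3%. Hmox1 was above 32.5% and Nqo1 above 69.7%. The plot of levels by aorta shows this order.

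The oxidant-producing side of the list was led by Nox4 (ENSMUSG00000030562, chr7:87244430-87398710). It was at 132, 114 and 120.05 TPM in control aortas 1 to 3 and at 97.4, 104 and 97.1 TPM in Prdm16SMKO aortas 1 to 3. All 3 Prdm16SMKO aortas lay below the lowest control aorta, also after median-ratio rescaling. The means were 122 ± 9.38 TPM and 99.4 ± 3.82 TPM (SD, n = 3 each), and the log2 fold change was −0.29 (SE 0.107, 95% CI −0.54 to −0.05), with an unadjusted P of 0.0225 and an adjusted P of 0.292. The interval corresponds to 0.689 to 0.964 of the control level. With rescaling the log2 fold change was −0.18 and the adjusted P 0.313. When each aorta was left out in turn it stayed between −0.34 and −0.24.

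Nox1 (ENSMUSG00000031257, chrX:134086421-134137711) was listed at 0 TPM in all 6 aortas and was not tested. A stretch of 399 bases is shared with transcripts of Cstf2, which was at 4.4 to 5.63 TPM. The submitters' processing notes name RSEM, and how the reads of that stretch were divided in these libraries is not given in the sources used here. Other catalytic subunits of the family were also low, and are given here after their values were seen. Cybb, the catalytic subunit of the phagocyte oxidase, was between 0.4 and 0.76 TPM, Duox1 and Duox2 did not exceed 0.16 TPM, and Nox3 was at 0. Nox4 was thus the only catalytic subunit of these 6 genes above 1 TPM.

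Cyba (ENSMUSG00000006519, chr8:122424771-122432940), whose protein stabilizes NOX1 and NOX4 in the membrane, was at 66.0, 48.9 and 54.6 TPM in control and 54.7, 59.5 and 51.6 TPM in Prdm16SMKO aortas. The groups overlapped fully, with a log2 fold change of −0.02 (SE 0.138, 95% CI −0.34 to 0.29, adjusted P = 0.969, limma). The sign turned to 0.09 after median-ratio rescaling. The ratio of Nox4 to Cyba, both in TPM, does not depend on the scaling of an aorta. It was 2.01, 2.33 and 2.20 in control and 1.78, 1.75 and 1.88 in Prdm16SMKO aortas, lower in each of the 3 than in any control. This ratio was not planned, and how often ratios of other gene pairs separate the groups was not computed.

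Because Nox4 is typical of smooth muscle, its level was set beside Myh11, which overlapped between the groups, and Acta2, which was lower in the same aortas. Relative to the TPM of Myh11, Nox4 was at 3.92%, 4.26% and 4.6% in control and 3.97%, 3.56% and 4.88% in Prdm16SMKO aortas, which overlapped. Relative to Acta2, smooth muscle actin, Nox4 was at 1.06%, 1.01% and 1.09% in control and 1.24%, 1.26% and 1.5% in Prdm16SMKO aortas, higher without overlap. Nox4 was thus lower in TPM, overlapping relative to Myh11 and higher relative to Acta2. Des, another of the smooth muscle markers, was higher in Prdm16SMKO without overlap, so Nox4 relative to Des was lower. The direction thus depended on the marker chosen, and ratios to the remaining markers were not computed. The part of the smooth muscle signal in these values was not tested.

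The 3 superoxide dismutases moved little. Sod1 (ENSMUSG00000022982, chr16:90220762-90226333) was at 459, 474 and 425 TPM in control and 414, 401 and 386 TPM in Prdm16SMKO aortas. These groups did not overlap in the deposited TPM but did after median-ratio rescaling. The log2 fold change was −0.18 (SE 0.0986, 95% CI −0.40 to 0.05, adjusted P = 0.494, limma) and −0.06 with rescaling. A processed pseudogene of Sod1, Gm8566, shares 465 bases at 97.8% identity, and at 0 to 1.62 TPM it holds little signal beside Sod1. Sod2 (ENSMUSG00000006818, chr17:13007839-13018119) was at 93.9, 139.8 and 103 TPM in control and 103, 87.5 and 121 TPM in Prdm16SMKO aortas, which overlapped, and the log2 fold change was −0.10 (95% CI −0.50 to 0.30, adjusted P = 0.858, limma). Its transcripts carry a stretch of up to 210 bases with matches (at least 90% identity) in 608 other genes, so its level is less certain than those of the other dismutases. Sod3 (ENSMUSG00000072941, chr5:52363804-52369738) was at 441, 381 and 409 TPM in control and 399, 464 and 338 TPM in Prdm16SMKO aortas. The highest and the lowest values were both in Prdm16SMKO, and the log2 fold change was −0.04 (95% CI −0.35 to 0.26, adjusted P = 0.929, limma). The signs for Sod2 and Sod3 turned positive after rescaling, at 0.02 and 0.07.

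The balance among the dismutases did not depend on scaling and also overlapped. Sod1 took 46.4% ± 1.17 of the summed dismutase TPM in control and 44.3% ± 1.91 in Prdm16SMKO aortas. For Sod3 these shares were 42.1% ± 3.32 and 44.1% ± 4.36, and for Sod2 11.5% ± 2.34 and 11.6% ± 2.59 (SD, n = 3 each). The cytosolic and extracellular enzymes thus made up most of the dismutase message in both groups.

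Catalase (Cat, ENSMUSG00000027187, chr2:103453904-103485153), which removes the hydrogen peroxide that NOX4 and the dismutases form, was at 55.3, 68.0 and 53.4 TPM in control and 44.8, 44.3 and 54.5 TPM in Prdm16SMKO aortas. Prdm16SMKO aortas 1 and 2 were below every control and aorta 3 fell among the controls. The mean was 81.3% of control, the log2 fold change −0.30 (SE 0.141, 95% CI −0.62 to 0.02), the unadjusted P 0.0651 and the adjusted P 0.435. With rescaling the log2 fold change was −0.18, and leaving out 1 aorta moved it from −0.39 (without Prdm16SMKO 3) to −0.19 (without control 2).

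**Figure D2:**
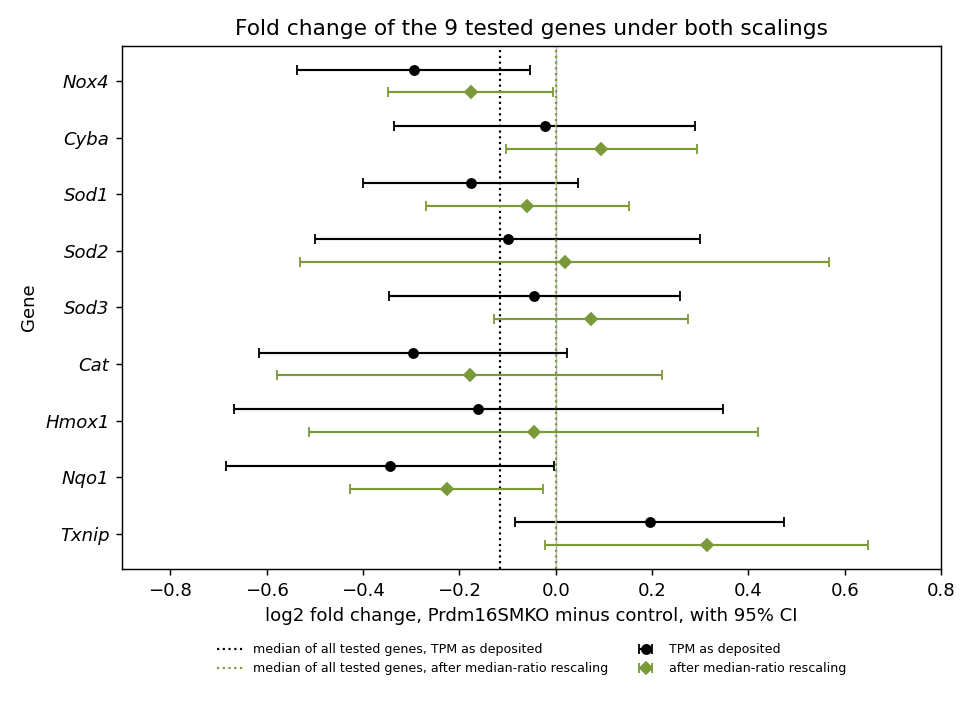
Log2 fold change (Prdm16SMKO minus control) of the 9 tested members with its 95% CI from limma, with the TPM as deposited (black circles) and after median-ratio rescaling (green diamonds), and dotted lines at the median of all tested genes in each. The intervals of Nox4 and Nqo1 leave out 0 with both scalings, before any adjustment, and rescaling moves every gene up by about the distance between the dotted lines.

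Sod2 and Cat, enzymes of mitochondria and peroxisomes, were highest within each group in the aorta with the most brown adipocyte signal. The summed level of Ucp1, Cidea, Cox8b, Elovl3 and Dio2 was 93.8, 533 and 290 TPM in control and 158, 135 and 449 TPM in Prdm16SMKO aortas, and none of these 5 markers was at 0 in all aortas. Control 2 held the highest Sod2 and Cat among controls, and Prdm16SMKO 3 held the highest of both in its group. Setting these 2 members beside the markers was not planned, and how many of all tested genes share this pattern was not computed. Without control 2 and Prdm16SMKO 3, an alternative added after the data were seen, the log2 fold change was −0.05 for Sod2 and −0.29 for Cat, with adjusted P of 0.994 and 0.832. A brown adipocyte score, the mean log2(TPM + 0.1) of the 5 markers and not their sum, was also added as a covariate after the data were seen. With this covariate the log2 fold change was −0.03 (SE 0.106) for Sod2. For Cat it was −0.26 (SE 0.103), and the adjusted P were 0.895 and 0.212 (limma). The part of perivascular brown fat in the level of each gene was not itself tested.

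**Figure D3:**
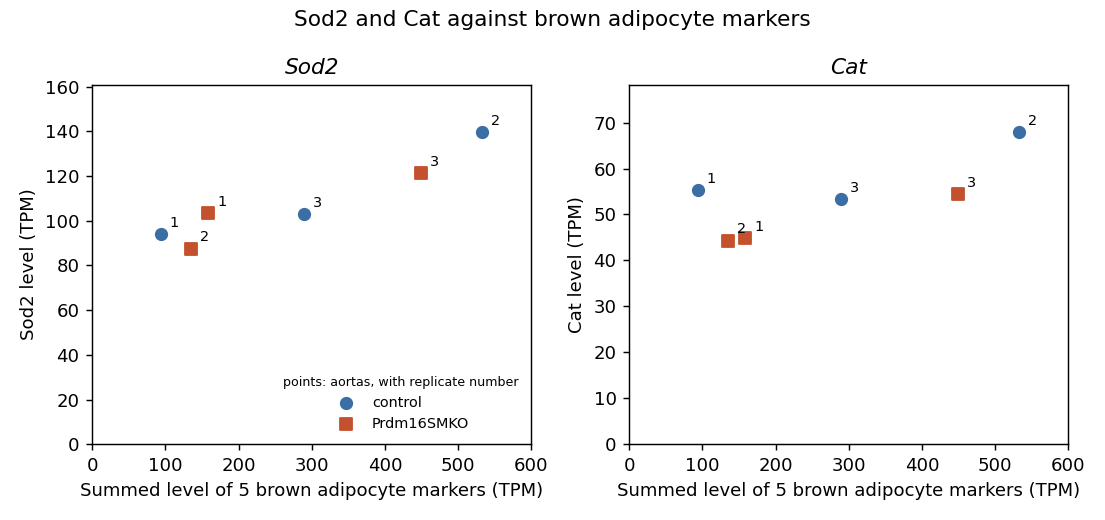
Level of Sod2 (left) and Cat (right) in TPM against the summed TPM of 5 brown adipocyte markers, with a point per aorta labelled by its replicate number. Control 2 and Prdm16SMKO 3 have the highest marker sums, 533 and 449 TPM, and the highest Sod2 and Cat of their groups.

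Of the NRF2 targets, Nqo1 (ENSMUSG00000003849, chr8:107388225-107403205) was at 22.3, 19.4 and 17.8 TPM in control and 16.6, 16.7 and 13.5 TPM in Prdm16SMKO aortas. The 2 groups did not overlap, with the deposited TPM or after rescaling, although control 3 lay close to the highest Prdm16SMKO aortas. The means were 19.8 ± 2.28 and 15.6 ± 1.83 TPM (SD, n = 3), and the log2 fold change was −0.34 (SE 0.15, 95% CI −0.68 to −0.0034) with an unadjusted P of 0.0482 and an adjusted P of 0.389. With rescaling it was −0.23 with an adjusted P of 0.267. Hmox1 (ENSMUSG00000005413, chr8:75093618-75100593) was at 4.37, 3.81 and 2.90 TPM in control and 3.33, 2.84 and 3.62 TPM in Prdm16SMKO aortas, the lowest level of the expressed members. The groups overlapped, and the log2 fold change of −0.16 had a wide interval (SE 0.224, 95% CI −0.67 to 0.35, adjusted P = 0.811, limma). It was −0.05 with rescaling, and leaving out 1 aorta moved it from −0.32 (without control 3) to −0.03 (without control 1).

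Txnip (ENSMUSG00000038393, chr3:96557957-96561857) was the only tested member with a positive log2 fold change in the deposited TPM. It was at 175, 177 and 154 TPM in control and 212, 168 and 202 TPM in Prdm16SMKO aortas. Prdm16SMKO aortas 1 and 3 were above every control, and aorta 2 fell among them. The mean was 115% of control and the log2 fold change 0.20 (SE 0.123, 95% CI −0.08 to 0.47, adjusted P = 0.547, limma), or 0.31 with rescaling (adjusted P = 0.360). Without Prdm16SMKO 1 it was 0.13 and without Prdm16SMKO 2 it was 0.29. The ratio of Txnip to Nox4, which the scaling cannot change, was 1.32, 1.56 and 1.29 in control and 2.17, 1.62 and 2.08 in Prdm16SMKO aortas and did not overlap. It was not planned, and it pairs the only positive member with the member of lowest P. Other ratios overlapped between the groups, namely Sod1 to Nox4, Sod1 to Sod3, Cat to Sod2, and Sod1 to Gapdh. An antisense gene, Gm15441, shares 443 bases with Txnip at 0.56 to 1.43 TPM, and whether reads were assigned by strand is not given in the sources used here.

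The genes whose log2 TPM followed Nox4 most closely over the 6 aortas were Lrrc41, Crhr2, Fbxo44, Cldn34c1 and Adamtsl4, with Pearson r of 0.997, 0.995, 0.993, 0.993 and 0.992. They are a description of likeness among 15668 genes over 6 aortas that share their groups, so any gene that separates the groups in the same way has a high r. Crhr2, a receptor of corticotropin-releasing hormone family peptides, was at 5.74 TPM on average in control and 2.36 TPM in Prdm16SMKO aortas. Lrrc41, a leucine-rich repeat protein, was at 14.02 and 11.4 TPM.

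The wider redox pathway was read from 8 lists with 127 identifiers in the table, of which 113 were tested. None passed the adjusted threshold (limma), against 1.07% of all tested genes. The study's own analysis of these aortas did call some of them. Its table of changed genes with PRDM16 promoter peaks lists Prdx6 and Sesn3 as higher and Msrb3 as lower in Prdm16SMKO. An unadjusted P under 0.05 was found for 13, with 10 lower and 3 higher in Prdm16SMKO, against 12.7% of all tested genes in either direction and 9.45% of all tested genes lower, so by this count the lists were near the background. Of the 113, 69 log2 fold changes were negative and 44 positive, with a median of −0.05 beside −0.12 for all genes. Groups did not overlap for 24 genes lower and 6 higher, against 14.9% and 4.08% of all tested genes. By list, the median was −0.21 for heme and iron handling, −0.18 for the glutathione system, −0.15 for the thioredoxin and peroxiredoxin system, and 0.10 for NADPH oxidase subunits and other oxidant sources. It was −0.027 for SOD cofactor supply, −0.015 for NRF2 regulators and NADPH supply, and −0.011 for peroxisome and mitochondrial uncoupling. For alpha-arrestins and the glucose-sensing regulators of Txnip it was 0.033. List medians after rescaling were not computed.

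Of the 8 genes with the lowest unadjusted P, 7 were lower in Prdm16SMKO and Maff was higher, and none passed the adjusted threshold. Among all tested genes under an unadjusted P of 0.05 (limma), 1481 of 1986 were lower. The 8 were picked by P, so a lack of overlap between their groups is no separate result. Por, cytochrome P450 oxidoreductase, which also passes electrons to heme oxygenase, was at 127, 130.2 and 96.8 TPM in control and 75.8, 83.2 and 69.0 TPM in Prdm16SMKO aortas, a log2 fold change of −0.63 (SE 0.143, adjusted P = 0.0895, limma). Txnrd2, the mitochondrial thioredoxin reductase, was at 10.1, 9.41 and 10.05 TPM and at 5.74, 6.96 and 6.15 TPM, a log2 fold change of −0.65 (SE 0.151, adjusted P = 0.0960). Gsr, glutathione reductase, was at 24.9, 24.4 and 21.8 TPM and at 16.6, 18.5 and 16.3 TPM, a log2 fold change of −0.46 (SE 0.128, adjusted P = 0.160). Each of these 3 was lower in every Prdm16SMKO aorta than in any control. With median-ratio rescaling Por passed the threshold, with a log2 fold change of −0.51 and an adjusted P of 0.0407.

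Txn1, Gpx1, Gstm2 and Alas1 were the other 4 of these genes with lower values. Txn1, cytosolic thioredoxin and the partner of TXNIP, was at 60.4, 60.9 and 59.1 TPM in control and 42.5, 52.1 and 46.6 TPM in Prdm16SMKO aortas (log2 fold change −0.36, adjusted P = 0.240). Gpx1, the abundant cytosolic glutathione peroxidase, was at 425, 457 and 419 TPM and at 336, 389 and 348 TPM (−0.28, adjusted P = 0.303). Gstm2, a glutathione transferase, was at 170, 153 and 139.6 TPM and at 116, 126 and 101 TPM (−0.43, adjusted P = 0.183), and passed with rescaling (−0.32, adjusted P = 0.0450). Alas1, the first enzyme of heme synthesis, had a log2 fold change of −0.47 (adjusted P = 0.273). The groups did not overlap for any of these 4 genes. Maff, a small MAF protein that pairs with NRF2 or represses its target sites, went the other way, at 15.2, 15.9 and 18.4 TPM in control and 21.3, 26.9 and 26.5 TPM in Prdm16SMKO aortas (0.59, SE 0.147, adjusted P = 0.117).

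The gene with the largest log2 fold change in the lists was named after its values were seen. Rac2, a leukocyte GTPase of the phagocyte oxidase, was at 0.4, 0.33 and 0.48 TPM in control and 1.4, 0.49 and 2.37 TPM in Prdm16SMKO aortas (1.38, SE 0.590, adjusted P = 0.378). The means were 0.403 ± 0.0751 and 1.42 ± 0.940 TPM (SD, n = 3), and the summed leukocyte markers overlapped, at 39.6 to 57.9 TPM in control and 29.9 to 53.0 TPM in Prdm16SMKO aortas. The control mean of Rac2 was under the filter of 0.5 TPM, so this gene was tested only through its Prdm16SMKO values. It is among the genes counted above as higher, by unadjusted P and by lack of overlap, and its fold change carries no weight of its own.

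**Figure D4:**
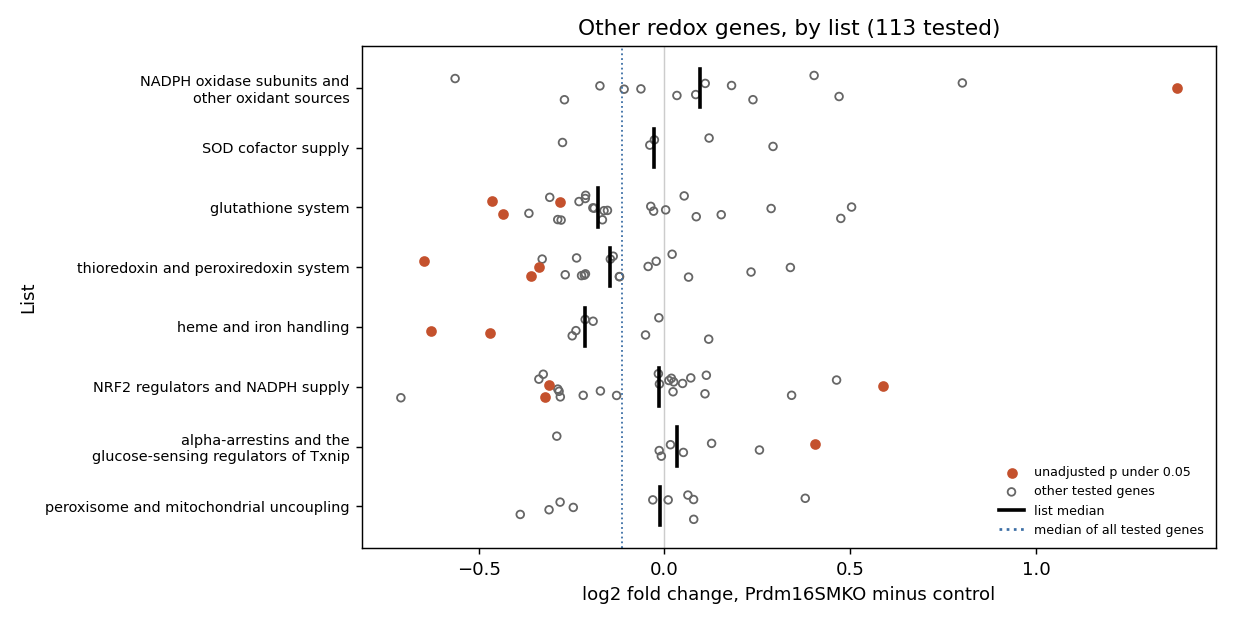
Log2 fold change (Prdm16SMKO minus control) of 113 tested genes in 8 redox lists, a circle per gene, filled where the unadjusted P is under 0.05, with a bar at each list's median and a dotted line at the median of all tested genes. The medians run from −0.21 for heme and iron handling to 0.10 for NADPH oxidase subunits and other oxidant sources, and filled circles lie on both sides of 0.

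PRDM16 peaks in the fibroblasts were placed by their centre, as promoter peaks when within 2 kb of a start site. The PRDM16 Flag list held 11271 peaks and the vector Flag list 67. Of the 10 members, 3 had a promoter peak, and of the tested genes with a curated RefSeq entry 43.3% did (49.4% of those with a mean of at least 10 TPM). The vector list had none at the members. With 1 library per condition there is no replicate and no test, and the fold enrichment, a ratio over the local background given by the authors, describes each peak only.

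The Sod1 peak was the strongest of the 3, at a fold enrichment of 7.38 and −log10 q of 10.8, above 85.5% of the peaks by fold. It was 1276 bp long and covered the start site, from 769 bp upstream to 506 bp downstream. Its summit lay 162 bp downstream, in coding sequence of the first exon, the window printed above. The single TGACNNNGC match of the promoter, at −56 to −48, was inside the peak, and another match lay 38 to 46 bp downstream of the summit. Matches to that pattern occurred within 100 bases of the summit in 8.36% of all peaks. The summit windows of Cyba and Cat held none of the 4 patterns.

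The Cat and Cyba peaks were narrow and weak. The Cat peak was 322 bp long with a fold enrichment of 4.25 and −log10 q of 5.23, above 24.1% of peaks, and lay 119 to 440 bp downstream of the start site, with its summit in an intron. The Cyba peak was 302 bp long with a fold enrichment of 4.22 and −log10 q of 3.19, above 18.4% of peaks, and lay 76 to 377 bp downstream, also with its summit in an intron. It did not reach the AGATAA match, which is at −220 to −215. At a q of at most 1e-05, Sod1 and Cat kept a promoter peak and Cyba did not, against 28.9% of tested genes with one. In the aorta, none of these 3 genes passed the test.

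Where another member had its nearest peak within 50 kb, that peak was at another gene. For Sod2 it was 15.3 kb upstream, at the promoter of Wtap, and for Nqo1 33.7 kb upstream, near the start of Wwp2. Txnip had 4 peaks within 50 kb, all at the promoters of Ankrd34a and Lix1l, the nearest 38.8 kb downstream. Within 50 kb of either end, 6 of 10 members had a peak, against 75.7% of tested genes. Counted from the start site, the nearest peaks to Hmox1 and Sod3 were 99.6 and 108 kb away, to Nox1 422 kb, and to Nox4 1032 kb. Nox4 and Nqo1, the members under an unadjusted P of 0.05 in the aorta, thus had no peak in the gene or within 10 kb of either end in the fibroblasts, where 3 of 10 members and 55.5% of tested genes had one.

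**Figure D5:**
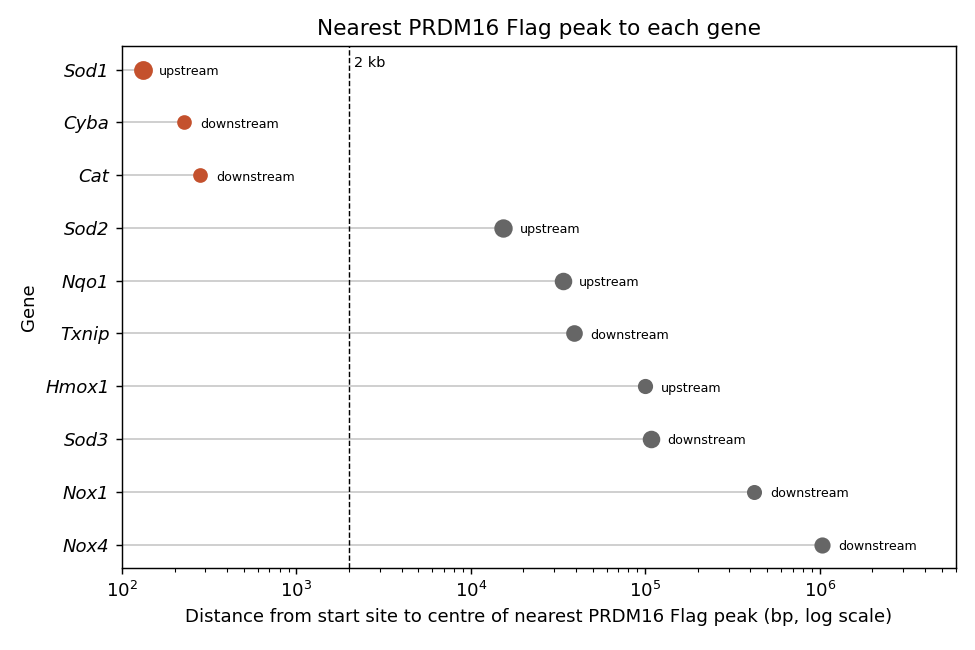
Distance in bp (log axis) from the start site of each of the 10 members to the centre of the nearest PRDM16 Flag peak in fibroblasts (1 library), with the side of the start site written beside it, circle area proportional to fold enrichment, orange circles for promoter peaks and a dashed line at 2 kb. Sod1, Cyba and Cat lie at 132, 227 and 280 bp, and Nox4 lies farthest, at 1031645 bp.

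The base composition of members with and without a promoter peak overlapped. The GC content of the 300-base promoter was 66.7% at Sod1, 62.0% at Cat and 60.7% at Cyba, and 68.3% at Nox4, 65.3% at Txnip and 64.3% at Sod2, which had no promoter peak. Nqo1 and Nox1, also without one, were lower than every member with a peak, at 53.7% and 38.0%. The median was 64.7% for tested genes with a promoter peak and 58.3% for those without.

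In the redox lists, 50 of 111 tested genes with a curated transcript had a promoter peak (45.05%, beside 43.3% of all). Among the 8 genes described above, Txnrd2, Gsr and Txn1 had promoter peaks, with fold enrichments at the nearest peak of 4.57, 7.03 and 5.98, and Por, Maff, Gstm2, Alas1 and Gpx1 had none. By list the share ran from 11.1% for heme and iron handling (1 of 9) to 56.5% for NRF2 regulators and NADPH supply (13 of 23), where Nfe2l2, the gene of NRF2 itself, and its inhibitor Keap1 both had one.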

How the data were processed

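The members and lists were chosen with earlier results of these data known. For RNA-Seq the authors deposited TPM per gene and aorta from poly(A)-selected libraries. Columns headed WT and KO with a replicate number were taken as the control and Prdm16SMKO samples of that number. The submitters' processing notes name STAR 2.7.8a, RSEM 1.3.3, cutadapt 2.3 and GRCm38. For ChIP-Seq the authors deposited 1 MACS2 peak list per anti-Flag library on GRCm38, with the fold enrichment as a ratio and the p-value and q-value as −log10. Their MACS2 call used the human genome size setting. IgG libraries were not used here.

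The groups were compared by limma 3.58.1 (R 4.3.3; lmFit, then eBayes with its trend option) after adding 0.1 to the TPM and taking log2, for genes averaging at least 0.5 TPM. P values were two-sided and adjusted by the Benjamini-Hochberg method over 15668 genes. TPM are not counts, so no count test or counting interval was used. An exact permutation test of 3 against 3 aortas cannot give a P value below 0.1. The fit was tested on simulated data. Peaks were placed by their centre against curated RefSeq transcripts. Similar transcripts were found with BLAST 2.17.0 (at least 150 bases at 90% identity). Genes named were the 10 members, the 8 redox genes with the lowest unadjusted P (none passed the adjusted threshold), the 5 genes most like Nox4, and Prdm16, with exceptions stated where they occur. Alternatives were other pseudocounts, filters and scalings, a block for the replicate number, omission of each aorta in turn, and other peak windows and q limits. Python 3.11.15, pandas 2.3.3, numpy 2.4.6, Biopython 1.88, pysam 0.24.0 and matplotlib 3.10.9 were used.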

Additional observations from a re-analysis of the deposited data

How the results depend on the processing

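No member passed the adjusted threshold under any of the 18 alternatives, and 0 did with each aorta left out in turn. The signs of Nox4, Sod1, Cat, Hmox1, Nqo1 and Txnip were the same under all 18. Under an unadjusted P of 0.05 (limma) were 2 members in the main fit, against 1986 of all 15668 tested genes. There were 0 without the trend, against 1753 of the 15668 genes, and 4 with the brown adipocyte covariate, against 3372 of them. Low P values thus became more frequent over all genes with that covariate. For Nox4 this P was 0.0636 with quantile normalization and 0.0541 without the trend. Leaving out 1 aorta moved it from 0.026 (without Prdm16SMKO 2) to 0.0869 (without Prdm16SMKO 1). For Nqo1 it was 0.0712 without the trend, and 0.04 (without control 3) to 0.161 (without Prdm16SMKO 3). With median-ratio rescaling, quantile normalization, and rescaling without ribosomal RNA entries and mitochondrially encoded genes, the log2 fold change turned positive for Cyba (0.095, 0.14 and 0.098), Sod2 (0.018, 0.055 and 0.021) and Sod3 (0.074, 0.084 and 0.077), and for Cyba also without mitochondrially encoded genes (0.011). Leaving out 1 aorta moved Cyba between −0.12 and 0.094, Sod2 between −0.22 and 0.069 and Sod3 between −0.16 and 0.071, with positive values for Cyba and Sod3 without control 1 or Prdm16SMKO 3 and for Sod2 without control 2 or Prdm16SMKO 2. Sod3 was at 0.019 without control 2 and Prdm16SMKO 3. The cause of these changes was not tested. Of the redox lists, the number of genes past the threshold was 0, and became 2 with median-ratio rescaling (Por and Gstm2), 1 with quantile normalization (Prdx6, adjusted P = 0.0414), and 3 with the brown adipocyte score as a covariate (Por, Txnrd2 and Gstm2). Of all tested genes, 168 passed, against 411 with median-ratio rescaling, 392 with quantile normalization, 48 without the trend, 110 without the filter, 279 without mitochondrially encoded genes, 373 without these and ribosomal RNA entries, 600 with the brown adipocyte covariate, and 91 to 141 with 1 aorta left out. The lowest adjusted P of a member was 0.0626, for Nox4, with that covariate. The settings without ribosomal RNA entries, with the covariate, and without control 2 and Prdm16SMKO 3 were chosen after seeing the data. With the replicate number as a block, 184 genes passed and 0 members did. Samples of the same number did not deviate together over all tested genes (r of −0.0246, −0.07 and −0.00896). With 3 aortas per group this cannot settle whether the numbers pair the aortas, and the labels do not say. A promoter peak was found at 3 members with windows of 1 kb and 5 kb, by the summit, and at a q of at most 0.001, and at 2 at a q of at most 1e-05. Members with a peak in or near them rose from 3 within 10 kb to 6 within 50 kb. The depth of each aorta is unknown, and 3 aortas per group and 1 ChIP library per condition limit the precision.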
